A study of Homo sapiens with 16 samples.

Results

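The effect of formoterol alone on gene expression was measured in differentiated HepaRG cells, as the difference between the 4 formoterol libraries and the 4 control libraries, 8 of the 16 libraries of the study. These libraries were chosen by their labels, and all 58735 genes of the count table were considered, of which 18121 had enough counts to be tested. HepaRG is an established human liver line that differentiates, over weeks in DMSO, into cells resembling hepatocytes and cells resembling cholangiocytes. Control cells received the 1% BSA vehicle and formoterol cells 30 nM formoterol, for 3 days with daily changes of medium. The labels name BSA for the control group and do not say whether the formoterol cells had it. If they did not, an effect of BSA cannot be told apart from that of formoterol. Both groups were kept throughout in 2% DMSO, in Williams medium E with serum, insulin and triamcinolone acetonide, a synthetic glucocorticoid. The remaining 8 libraries came from cells given 0.25 mM palmitic and 0.5 mM oleic acid, without or with 30 nM formoterol. They are used here to ask whether the changes recur or differ in the presence of fatty acids. They were also part of the same fit, and so share in the estimate of spread behind the p-values for formoterol alone. The labels call the 4 libraries of a group independent replicates of 1 cell line without saying that they came from separate cultures. The p-values therefore measure the spread between libraries within the 4 groups, which may be partly technical.

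Formoterol is a long-acting agonist of the beta-2 adrenergic receptor. Occupied receptors activate the stimulatory G protein and adenylyl cyclase, cyclic AMP (cAMP) rises, and protein kinase A phosphorylates CREB, which acts with CRTC coactivators on genes whose promoters carry the cAMP response element. Such signalling is limited by arrestins, receptor loss, cAMP phosphodiesterases, salt-inducible kinases and CREM repressors. In hepatocytes the pathway is known for driving glucose output and amino acid use in fasting, mostly under glucagon.

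Poly-A RNA gave 33293708 to 34936732 counts per control library and 32781888 to 65673126 per formoterol library, the deepest being formoterol replicate 4. Levels of genes are given as CPM, counts relative to the library total after TMM scaling; summed marker levels and detection limits are relative to the unscaled library total. Changes are log2 fold changes, formoterol minus control, ± SE. A gene passed, or was called, when its adjusted p was under 0.05 in edgeR's quasi-likelihood test with Benjamini-Hochberg adjustment over all 18121 genes. Of these, 1872 genes (10.3%) passed, 1043 up (5.76%) and 829 down (4.57%), and these shares are the background against which counts within gene lists are read. All 4 formoterol libraries lay above all 4 control libraries for 9.30% of the genes tested and below them for 7.42%, 16.7% in all. The scaling matters for this split. When libraries were scaled by total counts instead of TMM factors, the median change of all genes moved from -0.00 to -0.14, and 485 genes were called up and 1918 down. The number called was lower without control replicate 3 (1002) and without formoterol replicate 4 (1118). When only the 2 groups were fitted, it was 2191 with all 8 libraries and 1637 without control replicate 3. That last fit, added after the data were seen, ended the calls of 4 named genes, PDE3A, PER1, CRACR2B and ZNF208. The fit of all groups without control replicate 3 ended 21. Losses given below without that library therefore depend partly on which groups were fitted. Counts from the fit of the 2 groups alone are likewise not directly comparable with those of the main fit.

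**Figure D1:**
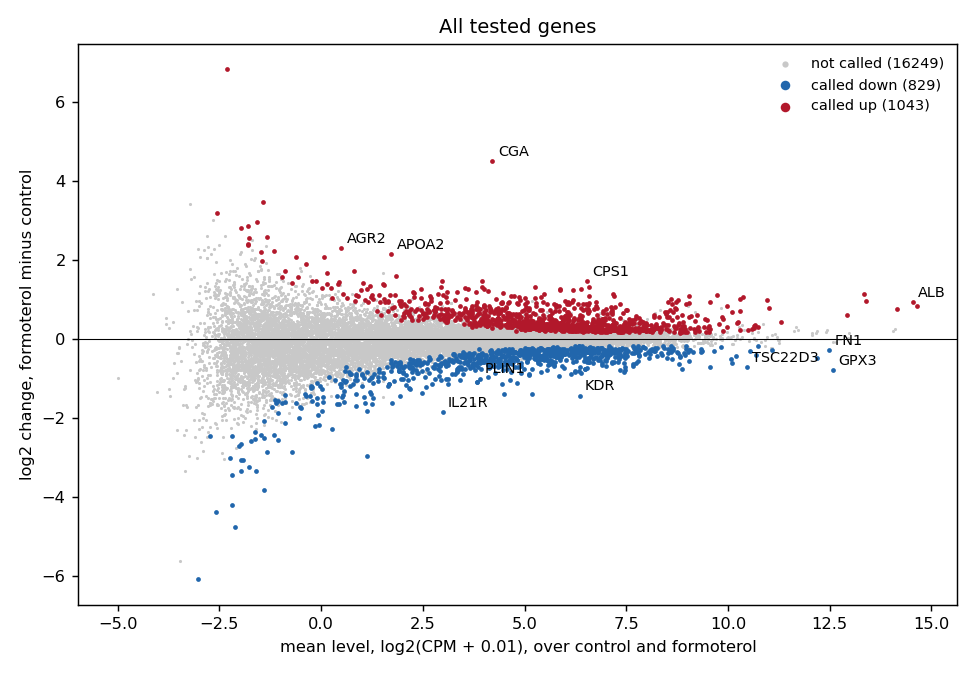
Change with formoterol (vertical axis, log2) against mean level (horizontal axis, log2 of CPM + 0.01) for every tested gene, 1 point per gene. The 1043 genes called up are red and the 829 called down are blue; CGA, with a log2 change of 4.50, stands above all other genes at its level.

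The labelled cell mixture was compared with marker genes. All 12 hepatocyte markers were measured, and their summed level was 25256 to 37217 CPM in control libraries, lowest in replicate 3, and 50341 to 52606 CPM with formoterol. Of 10 cholangiocyte markers 7 were measured, with summed levels of 171 to 177 and 182 to 190 CPM. Among them KRT19 and SOX9 were at 58.7 ± 6.40 and 47.9 ± 3.38 CPM in control cells (mean ± SD over 4 libraries), while KRT7 was at 0.323 ± 0.0836 CPM, EPCAM had no count in any of the 8 libraries and AQP1 had 1 count in all. The cholangiocyte label therefore rests on part of the list. In a bulk sample, fewer cells of a type and less RNA per cell cannot be told apart, and this holds for all changes below.

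Promoters are shown for genes of the cAMP pathway or its known targets, and for MUC13 and CHMP1B, which were chosen after their values were seen. They are given as RefSeq has them on GRCh38.p14, 5′ to 3′ on the strand of the gene. Letters are in lower case with the element in capitals, to let the element be read beside the change. The full element searched was TGACGTCA, a palindrome that reads the same on both strands. CGA carried it in 2 copies, beginning 142 and 124 bases before the start of transcription (chr6:87095193-87095278, minus strand), MUC13 68 bases before (chr3:124934782-124934849, minus), CHMP1B 46 bases before (chr18:11851337-11851404, plus), AREG 65 bases before (chr4:74445041-74445108, plus), and CREM 50 bases before an internal start (chr10:35195822-35195889, plus), from which the inducible repressor form is known to be made.
CGA: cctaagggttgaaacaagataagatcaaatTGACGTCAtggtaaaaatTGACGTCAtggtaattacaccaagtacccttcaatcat
MUC13: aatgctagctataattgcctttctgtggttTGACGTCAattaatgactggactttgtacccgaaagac
CHMP1B: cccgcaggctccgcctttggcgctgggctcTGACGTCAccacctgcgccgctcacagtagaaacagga
AREG: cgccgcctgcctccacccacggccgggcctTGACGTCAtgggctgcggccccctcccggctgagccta
CREM: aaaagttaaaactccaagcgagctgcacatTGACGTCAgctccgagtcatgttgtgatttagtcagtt

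NR4A3 and SIK1 had no full element in the window but several shorter sites, TGACG or its reverse complement CGTCA, in capitals below. NR4A3 had 4, beginning 109, 91, 83 and 25 bases before the start (chr9:99821746-99821884, plus), and SIK1 had 3, at 217, 137 and 126 bases (chr21:43427223-43427378, minus).
NR4A3: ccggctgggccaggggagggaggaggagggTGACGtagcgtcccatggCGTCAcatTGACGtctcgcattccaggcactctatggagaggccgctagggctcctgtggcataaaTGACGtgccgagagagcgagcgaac
SIK1: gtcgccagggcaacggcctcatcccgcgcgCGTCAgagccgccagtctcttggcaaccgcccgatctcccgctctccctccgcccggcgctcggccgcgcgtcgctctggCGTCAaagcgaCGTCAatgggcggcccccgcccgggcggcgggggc

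The element was searched in all promoters. In the 250 bases before any RefSeq start, TGACGTCA was found for 27 of the 813 genes called up that had a promoter in the table (3.32%), 14 of 572 called down (2.45%) and 355 of all 11631 tested genes with one (3.05%). The shorter site on either strand, which every full element also contains, was found for 33.6%, 30.4% and 34.0% of the same genes. A match describes these letters only, and FN1, which fell, also holds the full element.

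The largest rise among genes at 2 CPM or more in the higher group was that of CGA (ENSG00000135346, chromosome 6, 87085498 to 87095406, minus strand), which encodes the common alpha chain of the pituitary and placental glycoprotein hormones and is a textbook CREB target in placental and pituitary cells. CGA was at 1.43, 0.986, 2.16 and 1.68 CPM in control replicates 1 to 4 and at 33.1, 29.8, 36.0 and 43.0 CPM with formoterol. The groups lay far apart, with means 22.7-fold different and a log2 change of 4.50 ± 0.20 (adjusted p = 9.28e-12). The rise recurred at the same size when formoterol was added to fatty acids, at 4.65 ± 0.21 (adjusted p = 9.69e-12).

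ADRB1 and ADRB3, the beta-1 and beta-3 receptors, were at or near the limit of detection, which is 3 counts in a library or 0.046 to 0.092 CPM: ADRB1 had 0, 0, 0 and 6 counts in control and 4, 0, 6 and 8 with formoterol, and ADRB3 had 0 in all 8. Of 10 measured receptors, G proteins and cyclases GNAS, the stimulatory G protein alpha subunit, was the only one up, at 464 ± 26.0 and 524 ± 26.4 CPM (0.18 ± 0.05, adjusted p = 0.0430). GNAS lost its call under most alternatives, with an adjusted p of 0.150 without formoterol replicate 4, and the cyclase ADCY6 did not pass (0.09). The alpha-1A adrenoceptor ADRA1A, which couples to calcium rather than cAMP, fell, from 115 ± 5.15 to 69.7 ± 9.93 CPM (-0.73 ± 0.10, adjusted p = 0.000110).

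Of 11 measured desensitisation genes 3 rose and 0 fell: RGS2, which shortens G protein signalling, SLC9A3R1, a scaffold that binds the tail of the beta-2 receptor, and ARRB2, beta-arrestin 2. RGS2 was at 8.82, 7.74, 10.6 and 7.21 CPM in control and 11.0, 12.7, 14.4 and 16.5 CPM with formoterol, a narrow separation between control replicate 3 and formoterol replicate 1 (0.67 ± 0.16, adjusted p = 0.00834). Of 14 cAMP phosphodiesterases 2 rose. PDE4D, known to be recruited to the receptor by arrestin, was at 20.4, 17.4, 13.7 and 13.1 CPM in control and 34.8, 36.1, 33.6 and 32.5 CPM with formoterol (1.08 ± 0.12, adjusted p = 1.20e-05). PDE3A changed less, by 0.37 (adjusted p = 0.0412). PDE4B and PDE3B did not pass, at 0.06 and 0.15. ARRB2 and PDE3A were close to the threshold, with adjusted p of 0.143 and 0.0607 without control replicate 3 and 0.0934 and 0.0877 without formoterol replicate 1, and other single libraries also ended these calls.

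The catalytic subunit of protein kinase A, PRKACA, was at 81.8 CPM in control on average and 90.9 CPM with formoterol and did not pass (adjusted p = 0.185). Of 16 measured kinase, anchor and Epac genes 1 rose, the inhibitor PKIB (0.62, adjusted p = 0.0199), and 3 fell. The fallers were the regulatory subunit PRKAR2B (-0.33) and the anchors AKAP13 (-0.31) and AKAP5 (-1.47); AKAP5 overlaps ZBTB25, which has 19.2 times its counts on the opposite strand, and its value is uncertain. PKIB and AKAP13 lost their calls without control replicate 3 (adjusted p = 0.0842 and 0.0557) and without formoterol replicate 4 (0.0672 and 0.0677), and PKIB also without formoterol replicate 1 (0.0501).

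In the CREB group 4 of 16 genes rose and 1 fell. NR4A3, an orphan nuclear receptor induced by cAMP, was at 6.59, 6.99, 5.35 and 5.81 CPM in control and 13.4, 15.4, 10.2 and 17.1 CPM with formoterol (1.19 ± 0.17, adjusted p = 0.000128). SIK1, the kinase that holds CRTC coactivators in the cytoplasm, was at 11.4, 8.50, 10.1 and 12.4 CPM in control and 18.8, 16.7, 19.8 and 16.0 CPM with formoterol (0.75 ± 0.15, adjusted p = 0.00252). In both genes every treated library was above every control. CREM, the cAMP-responsive repressor, rose less, from 17.9 ± 2.51 to 24.7 ± 0.915 CPM (0.47 ± 0.11, adjusted p = 0.00880, or 0.0645 with scaling by total counts), and the table does not separate its isoforms. CREB1 and the coactivators CRTC1 and CRTC2 did not pass (-0.01, -0.14 and -0.16).

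CREB3L3, a liver membrane-bound factor of the same family, was at 70.4 to 77.8 CPM in control and 110 to 126 CPM with formoterol (0.67, adjusted p = 0.00174). The coactivator CRTC3 was the gene that fell, at 53.5, 51.4, 55.4 and 52.8 CPM in control and 37.2, 42.3, 40.4 and 36.1 CPM with formoterol (-0.45 ± 0.07, adjusted p = 0.000224). The NR4A family members NR4A1 and NR4A2, also known to answer cAMP, were at 3.72 and 6.50 CPM in control and did not pass (0.16 and 0.18). On the same day NR4A1 did pass when formoterol was added to fatty acids, as given below. Among 17 immediate early genes JUND rose (0.35) and JUNB fell (-0.44), a share near the background. JUND lost its call without formoterol replicate 4 (adjusted p = 0.0501) and JUNB without control replicate 3 (0.0558).

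Of 26 measured cAMP targets 10 rose and 3 fell, with a median change of 0.22. The same number rose without control replicate 3 and without formoterol replicate 4, and 8 when scaled by total counts. AREG, an epidermal growth factor receptor ligand, was at 17.5, 13.9, 18.6 and 17.0 CPM in control and 21.9, 21.3, 25.4 and 27.7 CPM with formoterol (0.53 ± 0.12, adjusted p = 0.00776, or 0.0595 with scaling by total counts). The 3 that fell were JUNB, PER1, a clock gene (-0.34), and IRS2, an insulin receptor substrate (-0.33), and all 3 lost their calls without control replicate 3 (adjusted p = 0.0558, 0.120 and 0.0602). PPARGC1A, the coactivator of fasting metabolism that cAMP is known to induce in liver, was at 113, 103, 103 and 98.8 CPM in control and 117, 120, 117 and 112 CPM with formoterol, overlapping at the edge, and did not pass (0.16, adjusted p = 0.159).

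A pair of further genes that carry the element were among the most precisely measured rises; they were chosen after their values were seen. MUC13 (ENSG00000173702), a membrane mucin, was at 92.9, 90.4, 87.1 and 87.2 CPM in control and 194, 198, 201 and 201 CPM with formoterol (1.15 ± 0.08, adjusted p = 4.70e-09). CHMP1B (ENSG00000255112), a membrane remodelling protein, was at 109, 109, 101 and 105 CPM in control and 169, 180, 168 and 189 CPM with formoterol (0.74 ± 0.06, adjusted p = 1.45e-07). CHMP1B lies within GNAL, a same-strand gene with 0.151 times its counts.

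**Figure D2:**
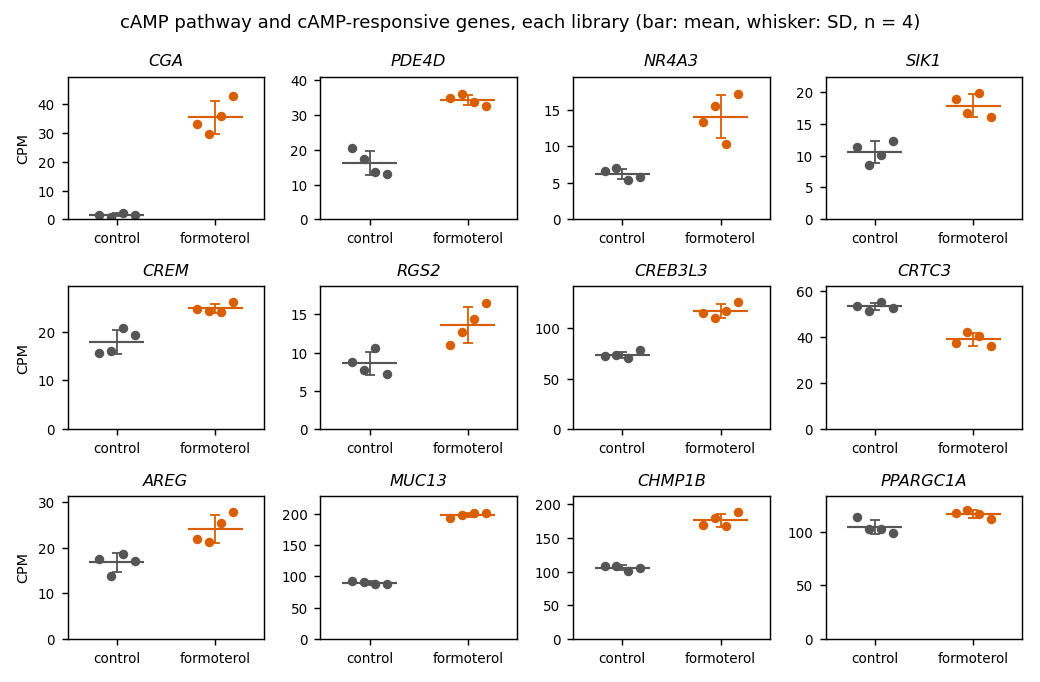
Level in each library (vertical axis, CPM, from 0) of 12 genes in control (grey) and formoterol (orange) cells. Bars are means and whiskers SD over 4 libraries. The genes belong to the cAMP pathway or its known targets, except MUC13 and CHMP1B, which were chosen after their values were seen. CGA, PDE4D, NR4A3, SIK1, MUC13, CHMP1B and CREB3L3 separate upward, CRTC3 separates downward, and PPARGC1A overlaps at 112 to 113 CPM.

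Of 16 gluconeogenesis genes 9 rose and 1 fell, with a median change of 0.25 against -0.00 over all genes. G6PC, the catalytic subunit of glucose-6-phosphatase, was at 43.2, 57.2, 25.4 and 49.6 CPM in control and 110, 88.4, 113 and 103 CPM with formoterol (1.24 ± 0.25, adjusted p = 0.00294). SLC37A4, which carries its substrate into the ER, rose by 0.53, though TRAPPC4 on the opposite strand has 0.417 times its counts. PCK1, the cytosolic carboxykinase at the start of the pathway, was at 9.24, 9.46, 6.75 and 9.42 CPM in control and 14.8, 12.7, 15.6 and 15.3 CPM with formoterol (0.75 ± 0.17, adjusted p = 0.00656). The mitochondrial form PCK2 was at 99.6, 109, 86.5 and 107 CPM in control and 144, 133, 142 and 154 CPM with formoterol (0.51, adjusted p = 0.00841). In these genes control replicate 3 was the lowest control library and all treated libraries lay above all controls.

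Other glucose genes moved both ways. Of 24 glycolysis genes 8 rose and 2 fell; the liver glucose carrier SLC2A2 rose by 0.94, while the ubiquitous carrier SLC2A1 and hexokinase HK2 fell by 0.35 and 0.50. All 3 passed, with adjusted p of 0.00596, 0.00322 and 0.00348. Of 19 glycogen genes 2 rose and 0 fell.

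Genes of amino acid breakdown rose in 22 of 49 cases and fell in 1, with a median of 0.41. Without control replicate 3 the count up was 13, and 24 when the 2 groups were fitted alone without it. SDS, serine dehydratase, which turns serine into pyruvate for glucose synthesis, was at 32.5, 38.5, 30.3 and 36.5 CPM in control and 80.4, 85.8, 75.5 and 90.0 CPM with formoterol (1.27 ± 0.12, adjusted p = 1.67e-06); SDSL overlaps it on the opposite strand with 0.401 times its counts. KYNU, kynureninase of tryptophan breakdown, was at 49.9, 47.1, 46.3 and 46.4 CPM in control and 83.6, 82.1, 88.1 and 98.4 CPM with formoterol (0.89 ± 0.07, adjusted p = 5.05e-08). TAT, tyrosine aminotransferase, went from 9.37 ± 3.72 to 22.7 ± 2.72 CPM (1.28 ± 0.30, adjusted p = 0.00902). GPT2, alanine aminotransferase of mitochondria, rose by 0.63, and the member that fell was CBS, of homocysteine disposal (-0.83), whose libraries overlapped and whose adjusted p was 0.0719 without control replicate 3 and 0.0623 without formoterol replicate 4.

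In the urea cycle 5 of 12 genes rose and 1 fell. CPS1 (ENSG00000021826), the enzyme that commits ammonia to the cycle, was at 47.9, 51.2, 46.9 and 51.1 CPM in control and 151, 135, 135 and 125 CPM with formoterol, a 2.77-fold difference in means (1.47 ± 0.07, adjusted p = 3.09e-11). OTC and ARG1, which act later in the cycle, were also called up (1.21 and 1.07) but lost the call when single libraries were left out. Their adjusted p was 0.103 and 0.131 without control replicate 3, where 1 of the 12 was up. Both kept the call when the 2 groups were fitted alone without that library. ARG1 also overlaps MED23, which has 5.98 times its counts. GLUL, which makes glutamine from ammonia, fell from 897 to 729 CPM (-0.30, adjusted p = 0.000365).

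Amino acid carriers moved in both directions, 4 of 22 up and 4 down. SLC38A4, a liver carrier of small neutral amino acids, rose by 1.03 (adjusted p = 0.000172), and SLC43A2 and SLC7A6, carriers of large neutral and cationic amino acids, fell by 0.46 and 0.67.

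Both PLIN2 and PLIN1, coat proteins of lipid droplets, fell. PLIN2, the main droplet coat protein of hepatocytes, was at 256, 229, 249 and 258 CPM in control and 150, 161, 150 and 162 CPM with formoterol (-0.67 ± 0.06, adjusted p = 1.96e-07). PLIN1 was at 19.3, 17.1, 22.6 and 20.4 CPM in control and 9.62, 8.35, 10.9 and 10.6 CPM with formoterol (-1.01 ± 0.10, adjusted p = 2.05e-06), with the caution that PEX11A on the same strand has 6.00 times its counts. Both sets of 4 libraries were fully separated. Of 18 droplet and lipolysis genes 4 fell, with PLIN4 (-0.24) and CIDEC, a droplet fusion protein (-0.48), and 2 rose, among them G0S2, an inhibitor of the lipase ATGL (0.67, adjusted p = 0.0165, or 0.0653 without control replicate 3 and 0.0691 without formoterol replicate 4). The median of the list was 0.00.

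Lipid synthesis genes split. Of 25 genes of fatty acid and triglyceride synthesis 8 rose and 5 fell. ACACB, the acetyl-CoA carboxylase at mitochondria, was at 233, 249, 255 and 248 CPM in control and 172, 165, 162 and 138 CPM with formoterol (-0.63 ± 0.07, adjusted p = 3.63e-06). GPAM, the first acyltransferase of glycerolipid synthesis, and MLXIPL, the carbohydrate-responsive factor ChREBP, also fell (-0.44 and -0.57). SCD, the stearoyl-CoA desaturase, rose from 853 ± 174 to 1790 ± 173 CPM (1.07 ± 0.24, adjusted p = 0.00628), and THRSP and DGAT2 rose by 1.26 and 0.65. THRSP lies opposite NDUFC2, which has 0.986 times its counts, and DGAT2 lost its call when any control or formoterol library was left out (adjusted p = 0.0522 to 0.141).

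Of 31 genes of fatty acid oxidation and ketogenesis 10 rose and 1 fell, but 3 rose without control replicate 3 and 2 with scaling by total counts. EHHADH of peroxisomes rose by 0.56. PDK4, a fasting-induced kinase that closes pyruvate dehydrogenase, did not pass (0.07). ACADL, a long-chain acyl-CoA dehydrogenase, fell from 209 to 156 CPM (-0.42, adjusted p = 5.74e-05). Of 25 cholesterol synthesis genes 11 rose and 0 fell, with a median of 0.28. INSIG1, which holds back sterol-regulated transcription, was among them (0.78).

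Genes of secreted and other typical liver products were higher with formoterol. Of 12 hepatocyte markers 8 rose and 0 fell (median 0.94), of 24 plasma proteins 15 and 0 (0.91), of 20 acute phase proteins 10 and 0 (0.61), of 29 coagulation factors 10 and 1 (0.65) and of 31 complement genes 14 and 0 (0.51). The 131 distinct genes of the plasma protein, acute phase, coagulation, complement and lipoprotein lists took 10.8%, 11.3%, 9.37% and 10.8% of counts in control and 15.7%, 15.5%, 15.8% and 16.2% with formoterol. All 4 formoterol libraries held a larger share than any control, and control replicate 3 held the smallest. Without control replicate 3 the calls up were 7 for hepatocyte markers, 8 for plasma proteins, 7 for acute phase, 4 for coagulation and 7 for complement. In the fit of the 2 groups alone without it they were 9, 18, 12, 15 and 14. That fit called more genes than the main fit when it kept control replicate 3, so these counts show no gain from leaving it out.

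ALB, albumin, was at 17449, 19891, 11609 and 17068 CPM in control and 31193, 30591, 31946 and 31699 CPM with formoterol (0.93 ± 0.20, adjusted p = 0.00458). The fibrinogen beta chain FGB was at 7072, 7093, 5486 and 6556 CPM in control and 13906, 14318, 14208 and 14928 CPM with formoterol (1.13 ± 0.14, adjusted p = 3.89e-05). The treated libraries were tightly grouped and the controls less so. SERPINA1, alpha-1-antitrypsin, rose from 7315 ± 559 to 14181 ± 1315 CPM (0.96 ± 0.18, adjusted p = 0.00180), and the fibrinogen chains FGA and FGG by 0.83 and 0.77. Not every marker moved: CYP3A4, the main drug-oxidising P450, was at 2181 ± 470 and 2374 ± 182 CPM (0.12, adjusted p = 0.825), and F9 and APOB also did not pass.

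Among transport proteins of lipid and retinol, APOA1, the HDL protein, rose by 1.10 (adjusted p = 0.00495), APOA2 from 1.21 ± 0.423 to 5.39 ± 1.30 CPM (2.15 ± 0.39, adjusted p = 0.00135) and RBP4 by 1.00. TFPI2, a protease inhibitor of the matrix, was at 22.3, 17.3, 24.0 and 23.5 CPM in control and 49.4, 48.5, 56.6 and 62.6 CPM with formoterol (1.32 ± 0.13, adjusted p = 2.06e-06).

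The transcription factors that hold the hepatocyte programme changed with these products, 11 of 27 up and 3 down, with a median of 0.35. HNF4A, a nuclear receptor central to hepatocyte identity, was at 97.5, 98.4, 89.3 and 95.9 CPM in control and 171, 147, 164 and 169 CPM with formoterol (0.77 ± 0.13, adjusted p = 0.000781). The bile acid receptor NR1H4 and the pioneer factor FOXA1 rose by 0.81 and 0.71. CEBPA, of the C/EBP family, was called up (0.77) but not without control replicate 3 (adjusted p = 0.0602) or without formoterol replicate 4 (0.0505).

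Bile acid genes rose in 8 of 21 cases with 0 down. CYP7A1, the rate-limiting enzyme of bile acid synthesis, was at 6.80, 13.5, 4.04 and 8.38 CPM in control and 22.8, 20.6, 26.9 and 19.9 CPM with formoterol (1.46 ± 0.32, adjusted p = 0.00528). BAAT, which conjugates bile acids, rose by 0.63. Of 32 P450 genes 6 rose and 2 fell and of 32 conjugation enzymes 11 and 0. CYP1A1, the enzyme induced through the aryl hydrocarbon receptor, fell from 8.01 ± 1.71 to 3.09 ± 0.692 CPM (-1.37 ± 0.24, adjusted p = 0.000873), and CYP4B1 fell by 0.54. The glucuronosyltransferase UGT2A3 rose by 0.90 and the acetyltransferase NAT2 by 0.79.

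The machinery that folds and moves secreted proteins also rose, by small steps. Of 29 genes of the unfolded protein response and ER chaperones 16 rose and 0 fell (median 0.27), and of 55 genes of the translocon, glycosylation and vesicle transport 28 and 0 (median 0.23). With scaling by total counts these counts were 9 and 8, and without control replicate 3 they were 12 and 17. XBP1, a transcription factor of secretory capacity, was at 290, 277, 250 and 300 CPM in control and 425, 433, 420 and 470 CPM with formoterol (0.65 ± 0.12, adjusted p = 0.00131). CALR, the lectin chaperone calreticulin, rose from 1034 ± 54.5 to 1401 ± 61.6 CPM (0.44 ± 0.07, adjusted p = 0.000349), and KDELR2, which returns chaperones to the ER, by 0.42. AGR2, a disulfide isomerase of mucin-secreting cells, was low, at 0.471 ± 0.252 CPM in control and 2.33 ± 0.295 with formoterol (2.30 ± 0.41, adjusted p = 0.00125).

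ATF4, the factor of the integrated stress response, was at 125 ± 10.8 CPM in control and 118 ± 9.39 CPM with formoterol and did not pass (-0.09). Of 53 cytosolic ribosomal protein genes, 13 mitochondrially encoded genes and 23 mitochondrial biogenesis factors 0 passed in edgeR's test and 0 in DESeq2, and 0, 4 and 2 of them had an unadjusted p under 0.05 in edgeR. Of 37 nuclear-encoded complex I genes 3 rose and of 39 of complexes II to V 7, with 0 down, among them CYCS, cytochrome c (0.32, adjusted p = 0.00174). With scaling by total counts 0 rose and 1 fell in complex I, and 1 rose and 0 fell in complexes II to V.

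**Figure D3:**
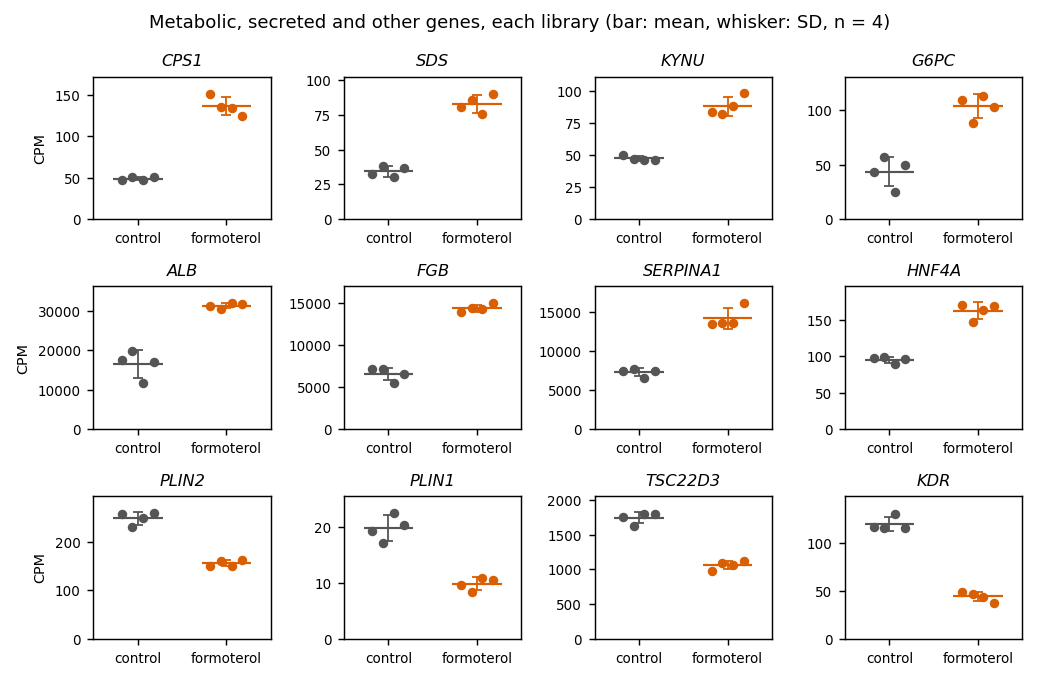
Level in each library (vertical axis, CPM, from 0) of 12 metabolic, secreted and other genes in control (grey) and formoterol (orange) cells; bars are means and whiskers SD over 4 libraries. The groups are separated in all 12 genes. Control replicate 3, the third grey point, is the lowest of the controls for CPS1, SDS, KYNU, G6PC, ALB, FGB, SERPINA1 and HNF4A.

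Genes that answer glucocorticoids or FOXO factors fell more often than they rose, 9 of 23 against 2, with a median of -0.14; the medium of both groups contained a glucocorticoid. TSC22D3 (GILZ), a classical glucocorticoid target, was at 1753, 1627, 1807 and 1797 CPM in control and 978, 1095, 1060 and 1125 CPM with formoterol (-0.71 ± 0.06, adjusted p = 1.60e-07). TXNIP, an arrestin-family brake on glucose uptake, was at 123, 112, 111 and 106 CPM in control and 70.2, 66.3, 63.9 and 66.3 CPM with formoterol (-0.76 ± 0.07, adjusted p = 7.94e-07). FKBP5, a chaperone of the glucocorticoid receptor, and FOXO3 fell less (-0.28 and -0.36), while TAT, a further member of the list, rose as given above. GPX3, the secreted glutathione peroxidase, was chosen after its value was seen and fell from 7818 ± 887 to 4517 ± 237 CPM (-0.79 ± 0.07, adjusted p = 2.99e-07).

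Targets of YAP and TGF-beta fell in 9 of 20 cases with 0 up, with a median of -0.26, and in 5 without control replicate 3. CTGF, a matricellular protein, was at 55.1, 57.3, 67.4 and 56.1 CPM in control and 34.2, 34.9, 34.4 and 33.1 CPM with formoterol (-0.79 ± 0.11, adjusted p = 0.000154). SMAD7, the feedback inhibitor of TGF-beta signalling, fell by 0.47 (adjusted p = 8.55e-05). Of 30 collagen and matrix genes 6 fell and 4 rose: the laminin LAMB1 (-0.45; DLD opposite it has 0.949 times its counts), COL12A1 (-0.59) and fibronectin FN1 (-0.28) were among the fallers, and tenascin TNC rose from 14.6 ± 1.61 to 24.7 ± 3.09 CPM (0.75 ± 0.10, adjusted p = 0.000117). Of 12 measured keratins 1 rose and 1 fell, with a median of 0.01. KRT5, a basal keratin that fell, was at 21.6, 23.2, 25.9 and 20.2 CPM in control and 11.8, 11.6, 12.6 and 10.6 CPM with formoterol (-0.97 ± 0.09, adjusted p = 1.67e-06).

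Among markers of other cell types, 1 of 7 measured stellate cell and fibroblast genes fell, with a median of -0.10. Of 3 endothelial genes 2 fell, KDR and ENG, and of 2 leukocyte genes 0 passed. ENG shares its position with AL162586.1, which has 1.02 times its counts. The summed level of stellate cell and fibroblast markers, 7 of 10 measured, was 587 to 746 CPM in control, highest in replicate 3, and 393 to 425 CPM with formoterol, and most of it was DCN, the proteoglycan decorin, which fell by 0.62; COL1A2 had no count in any of the 8 libraries. The summed level of endothelial markers, 3 of 8 measured, was 122 to 143 and 35.9 to 50.0 CPM, most of it KDR, a VEGF receptor, at 116, 116, 130 and 115 CPM in control and 49.0, 46.5, 43.5 and 37.7 CPM with formoterol (-1.44 ± 0.15, adjusted p = 3.71e-06; these levels are TMM-scaled and the sums are not). The defining endothelial genes VWF and CDH5 had no count in any of the 8 libraries. Leukocyte markers summed to 22.1 to 27.2 and 24.3 to 30.3 CPM, and CD3E had no count. The part of these markers in the falls of matrix genes was not tested.

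Chemokines and NF-kB targets moved in both directions, 7 of 28 up and 4 down. The neutrophil chemokines CXCL8 and CXCL2 went in opposite directions, CXCL8 from 23.3 to 14.5 CPM (-0.68, adjusted p = 0.00389) and CXCL2 from 13.6 to 21.8 CPM (0.68, adjusted p = 0.00285). The interleukin-33 receptor IL1RL1 rose by 0.51 and the interleukin-1 receptor IL1R1 fell by 0.34; IL18R1 shares the strand of IL1RL1 and has 0.522 times its counts. IL21R was at 13.5, 8.56, 15.4 and 12.2 CPM in control and 4.25, 2.70, 3.38 and 3.40 CPM with formoterol, all far lower (-1.85 ± 0.25, adjusted p = 6.86e-05). Of 24 mitosis genes 3 rose and of 25 DNA replication genes 2, with 0 down, among them the kinase AURKA (0.51, adjusted p = 0.0125, or 0.0574 without formoterol replicate 4), and 0 of either list passed with scaling by total counts.

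**Figure D4:**
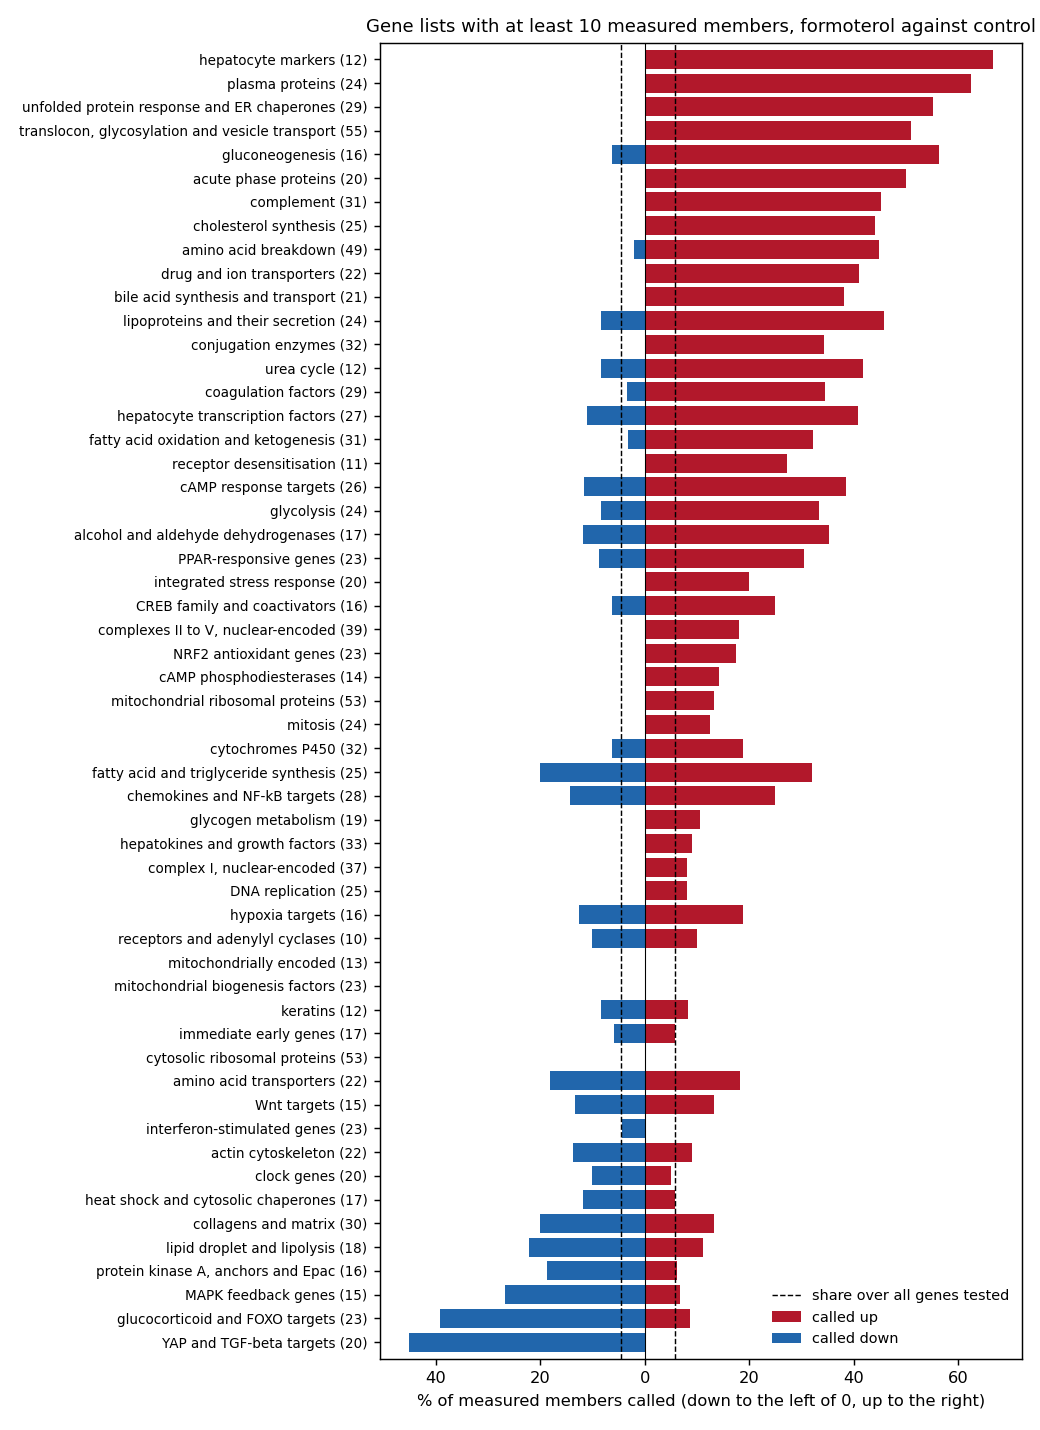
Share of the measured members of each gene list with at least 10 of them (number in brackets) called up (red, to the right) or down (blue, to the left of 0) with formoterol, in percent; dashed lines give the shares over all tested genes, 5.76% up and 4.57% down. Among these lists hepatocyte markers and plasma proteins have the largest excess of calls up, and YAP and TGF-beta targets the largest excess of calls down.

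By the size of the change alone, among protein-coding genes at 2 CPM or more in the higher group with no overlap between libraries, the 12 largest rises were those of CGA, AGR2, APOA2, CPS1, CYP7A1, TFPI2 and 6 others. The latter were ENPP6, a choline phosphodiesterase (1.60), SPINK1, a trypsin inhibitor (1.46), the phosphate carrier SLC17A1 (1.42), the phosphatase inhibitor PPP1R1A, a protein kinase A substrate (1.39), AHSG, fetuin-A (1.38), and the complement subunit C8B (1.32). PPP1R1A was at 1.66, 1.86, 1.15 and 1.73 CPM in control and 3.85, 3.43, 3.57 and 5.81 CPM with formoterol (adjusted p = 0.0122). Without control replicate 3 the adjusted p of AHSG, C8B, SLC17A1 and PPP1R1A was 0.141, 0.0914, 0.0735 and 0.0534, and without formoterol replicate 4 that of SPINK1 was 0.0852. AHSG was close to the threshold (adjusted p = 0.0456) and lost its call in 16 of 25 alternatives, among them DESeq2 (adjusted p = 0.0586). AC068631.1 on the opposite strand has 0.219 times the counts of AHSG.

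The 12 largest falls included IL21R, AKAP5, KDR and CYP1A1. SLC14A1, a urea channel, was at 31.3, 40.4, 31.5 and 28.3 CPM in control and 14.5, 12.3, 13.2 and 10.4 CPM with formoterol (-1.39, adjusted p = 5.79e-06), and PYROXD2, an oxidoreductase, went from 5.62 to 2.09 CPM (-1.43, adjusted p = 0.000344). The others lay lower, with control means of 2.06 to 3.90 CPM: IGSF10 (-1.82), CRACR2B (-1.46), and 4 whose reads are uncertain, U2AF1L5 (-2.96), which has a near-identical copy, ENG (-1.66), ZDHHC11 (-1.62) and ZNF208 (-1.30), which share their position with other genes. Of 1159 lincRNA genes 48 fell (4.14%) and 7 rose (0.604%), and of 1121 antisense genes 37 fell (3.30%) and 7 rose (0.624%), against 4.57% and 5.76% of all genes. The position of some is shared: AC007182.1 (-1.61) overlaps FLVCR2, which has 16.5 times its counts. CRACR2B and ZNF208 lost their calls without control replicate 3 (adjusted p = 0.105 and 0.0865) and without formoterol replicate 4 (0.119 and 0.0740).

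A second pair of groups, which shares no library with the first, showed what recurred when formoterol was added to the fatty acids. There 507 genes passed (2.80%), 304 up (1.68%) and 203 down (1.12%). In the same direction 170 genes passed in both, 9.08% of the genes called with formoterol alone and 33.5% of those called with fatty acids. Of the 1043 genes called up, 42.9% had a change of the same sign with fatty acids, with a median of -0.04, and of the 829 called down 58.9%, also with a median of -0.04. One of the 4 combination libraries, replicate 2, stood apart, with hepatocyte markers at 23889 CPM against 48738 to 52374 CPM in the other 3; without it 126 of the genes called up and 104 of those called down passed in the same direction, and the shares of the same sign were 56.8% and 66.7%.

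Some genes of the receptor pathway, its targets and other genes named above recurred with fatty acids, and others did not pass there. PDE4D (1.63), NR4A3 (1.99), SIK1 (1.17), RGS2 (1.44), AREG (1.08), MUC13 (1.51), CHMP1B (0.71), SDS (2.20), KYNU (0.98), CPS1 (0.79) and TFPI2 (1.02) passed with fatty acids in the same direction, and KDR (-1.20), TXNIP (-0.71), CTGF (-0.88), TSC22D3 (-0.34) and DCN (-0.40) also fell there. PDE3A (1.00) and PRKAR2B (-0.38) also passed. NR4A1 (0.93, adjusted p = 0.00943) and PDE3B (0.37, adjusted p = 0.00569) did not pass with formoterol alone but rose with fatty acids. An interaction passed for neither (adjusted p = 0.110 and 0.255). NR4A2, PDE4B, PRKACA, CREB1, CRTC1 and CRTC2 passed in neither pair of groups. Called with formoterol alone but not with fatty acids were CREM (0.15, adjusted p = 0.603), CREB3L3 (0.32, adjusted p = 0.212), CRTC3 (-0.06), ADRA1A (-0.11), SLC9A3R1 (0.10), ARRB2 (0.11), PKIB (-0.06), AKAP13 (0.10), AKAP5 (0.03), GNAS (-0.00), JUND (-0.17), JUNB (0.18), PER1 (0.18) and IRS2 (-0.02). Without combination replicate 2 CREB3L3 passed there (0.49, adjusted p = 1.17e-05). Among the genes just listed, an interaction passed for CRTC3, ADRA1A, AKAP13, JUND, JUNB and PER1. It did not pass for the others (adjusted p = 0.0533 to 0.356), whose changes were thus not shown to differ. Of 26 cAMP targets 9 rose and 0 fell with fatty acids. Of 24 mitosis genes 14 rose there and of 25 DNA replication genes 10, or 10 and 4 without combination replicate 2. AURKA rose by 1.08 (adjusted p = 1.20e-05), and an interaction passed for 0 genes of either list.

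Counts for liver products with fatty acids depended on combination replicate 2. Of 24 plasma proteins 1 passed upward with fatty acids and the median was -0.36, or 3 and -0.11 without that library. Of 12 hepatocyte markers 1 rose and 2 fell, with a median of -0.34, or 2 and 1 with a median of -0.07 without it. Of 20 acute phase proteins 1 rose (median 0.12), or 9 without it (median 0.34). With all libraries an interaction passed for 1 of them. Without combination replicate 2 it passed for FGB (-0.58, adjusted p = 0.000107), FGA (-0.29, adjusted p = 0.00959) and SERPINA1 (-0.60, adjusted p = 0.000164). It did not pass for FGG (-0.18, adjusted p = 0.197). Of 31 complement genes 1 rose, or 2 without that library. ALB changed by -0.47 (adjusted p = 0.261), and its change differed from that without fatty acids (interaction -1.39, adjusted p = 0.00677). Without combination replicate 2 the change of ALB with fatty acids was -0.22 (adjusted p = 0.260) and the interaction -1.15 (adjusted p = 4.56e-06). An interaction also passed for CYP7A1 (interaction -2.63, adjusted p = 0.00230), BAAT (-1.26, adjusted p = 0.000467) and PLIN2 (0.51, adjusted p = 0.00112), and without that library the values were -2.33, -1.13 and 0.53 and passed. The hepatocyte marker sum was 49017 to 56004 CPM in cells with fatty acids alone. An interaction passed for 700 of the 1872 genes called with formoterol alone, against 5.50% of all genes (2.12% with a higher and 3.38% with a lower change under fatty acids), a share that owes part of its size to choosing genes on the libraries that the interaction also uses; it was 271 without control replicate 3, 361 without formoterol replicate 4, and 432, 439 and 433 without control replicate 4, formoterol replicate 3 and fatty acid replicate 1.

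**Figure D5:**
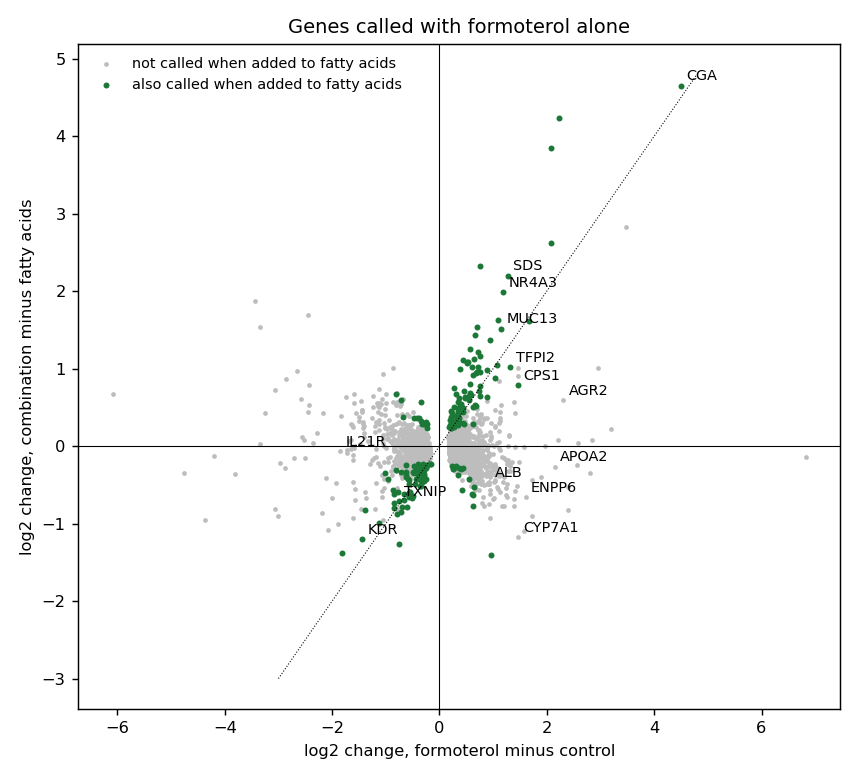
Change when formoterol was added to fatty acids (vertical axis, log2, combination minus fatty acids) against the change with formoterol alone (horizontal axis, log2), for the 1872 genes called with formoterol alone, 1 point per gene; green points were called in both and the dotted line marks equal changes. CGA, SDS, NR4A3 and MUC13 lie near or above the line, while ALB, CYP7A1 and APOA2 lie below 0 (APOA2 was at 0.07 without combination replicate 2).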

How the data were processed

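Bulk RNA sequencing of 16 HepaRG libraries was analysed from the gene count table that the authors deposited; no other normalization is recorded. HISAT2 2.0.5 and DESeq2 are listed in the submitters' processing notes. Those notes give mm39, a mouse build, whereas each of the 58735 gene IDs was a human one found in GENCODE 29 (GRCh38), so the counts were read as human. Counting program and strandedness: not given in the sources used here.

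Genes kept by edgeR's filterByExpr (18121, with 99.94% of counts) were scaled by TMM and fitted with edgeR 4.0.16 in R 4.3.3, as 4 group means over 16 libraries, with quasi-likelihood tests and Benjamini-Hochberg adjustment at 0.05. In simulated data for this comparison (17772 genes), 200 genes at a mean of 2 CPM or more were given a change. Of these, 70.0% of 1.5-fold and 92.0% of 2-fold changes were found. Genes at lower levels were not covered, and fewer genes changed than the 1872 called in the data. Alternatives were DESeq2 1.42.0, other scalings and filters, a replicate block, fewer libraries and stricter thresholds. Promoters (250 bases before RefSeq starts, GRCh38.p14) were searched as text. Tables and figures used Python 3.11.15.

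Members and lists were chosen with earlier results of these data known. The rule for named genes took the 12 protein-coding genes that rose most and the 12 that fell most (called, mean of 2 CPM or more, groups not overlapping), the called members of each list with the lowest p (3 at most), and a fixed set; not all are printed, and a few withheld genes are not reported here. Other genes, given as examples of a list or marker, were chosen after their values were seen: MUC13, CHMP1B, FN1, PKIB, IRS2, PCK2, SLC2A2, HK2, CBS, OTC, ARG1, PLIN4, CIDEC, G0S2, MLXIPL, SCD, THRSP, DGAT2, F9, APOB, APOA1, FOXA1, CEBPA, ATF4, FKBP5, GPX3, CXCL8, CXCL2, SOX9, KRT7, CYP2E1 and SLCO1B1.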

Additional observations from a re-analysis of the deposited data

Results flagged for a closer look

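Of the 276 groups of 4 libraries examined, control and formoterol for each of 138 named genes, 21 held a library far from the other 3 (Dixon's criterion); chance flags about 1 in 20 groups, and genes of a library are not independent. In control replicate 1 the distant values were those of NR4A1 at 2.94 CPM, ENPP6 at 1.25 CPM and AXIN2 at 12 CPM. In control replicate 2 the distant values were those of APOB at 3850 CPM and ZNF208 at 1.45 CPM. In control replicate 3 the distant values were those of PCK1 at 6.75 CPM, G0S2 at 16.4 CPM, APOA1 at 285 CPM, FKBP5 at 2475 CPM, KDR at 130 CPM and SLC17A1 at 0.701 CPM. In formoterol replicate 1 the distant values were those of SLC17A1 at 2.17 CPM and ENG at 1.91 CPM. In formoterol replicate 2 the distant values were those of MLXIPL at 192 CPM and THRSP at 14.4 CPM. In formoterol replicate 4 the distant values were those of GNAS at 563 CPM, G0S2 at 35.5 CPM, SERPINA1 at 16151 CPM, APOA1 at 860 CPM, COL12A1 at 94.7 CPM and ZNF208 at 0.219 CPM. Control replicate 3 and formoterol replicate 4 hold most of these values.

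For 63 of the 138 genes the change with formoterol differed between cells with and without fatty acids by edgeR's interaction test at an adjusted p under 0.05, against 5.50% of all genes. Values are the log2 change with fatty acids minus that without. It was negative for JUND (-0.52), G6PC (-1.78), SLC37A4 (-0.56), PCK2 (-0.81), SLC2A2 (-1.34), TAT (-1.60), GPT2 (-0.69), CPS1 (-0.68), OTC (-1.98), SLC38A4 (-1.25), G0S2 (-1.23), SCD (-1.41), THRSP (-1.92), DGAT2 (-1.04), EHHADH (-0.91), INSIG1 (-0.94), ALB (-1.39), FGB (-0.77), CYP3A4 (-1.65), APOA1 (-1.46), APOA2 (-2.42), RBP4 (-1.30), HNF4A (-0.76), NR1H4 (-0.87), CEBPA (-1.15), CYP7A1 (-2.63), BAAT (-1.26), UGT2A3 (-1.37), NAT2 (-1.24), KDELR2 (-0.43), ENPP6 (-2.27), PPP1R1A (-2.07), AHSG (-2.15), CYP2E1 (-1.28) and SLCO1B1 (-1.46). It was positive for MUC13 (0.36), ADRA1A (0.62), RGS2 (0.77), PDE3A (0.63), AKAP13 (0.40), CRTC3 (0.39), JUNB (0.61), PER1 (0.52), SLC2A1 (0.41), SDS (0.93), SLC43A2 (0.49), SLC7A6 (0.60), PLIN2 (0.51), PLIN1 (0.66), PLIN4 (0.48), ACACB (0.38), TSC22D3 (0.38), GPX3 (0.73), LAMB1 (0.39), KRT5 (0.54), IL1RL1 (0.56), IL1R1 (0.48), IL21R (1.79), PYROXD2 (1.72), CRACR2B (2.04), ENG (1.73), ZDHHC11 (1.86) and AC007182.1 (1.43). Most of these genes were named for their change with formoterol alone, which the interaction also uses. Without combination replicate 2, 61 of them still passed with the same sign.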

How the results depend on the processing

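The number of genes called with formoterol was 221 at a change of 2-fold or more and 775 at an adjusted p under 0.01. With 1 library left out in turn it was 1002 (without control replicate 3) to 2588 (without combination replicate 2). DESeq2 called 2308. The genes passing in the same direction with fatty acids numbered 170, and 120 to 265 (without combination replicate 2) with 1 library left out. Genes with an interaction numbered 700, 1121 without the filter on low counts, and 271 to 874 with 1 library left out; the cause was not tested. Scaling by total counts moved the share of calls that were up from 55.7% to 20.2%. With the shorter site TGACG in place of the full element the share of promoters of genes called up with a match went from 3.32% to 33.6%. Of 122 genes called and named, 95 kept direction and call at an adjusted p of 0.05 in every refit (the 2-fold and 0.01 thresholds aside), and 0 changed sign. Changes that turned sign all belonged to genes that did not pass: with total counts ADCY6 (-0.04), PDE4B (-0.08), PDK4 (-0.06) and CYP3A4 (-0.01), without the filter CREB1 (0.00), in the 2 groups without control replicate 3, an alternative added after the data were seen, PDE4B (-0.01) and CYP3A4 (-0.02), and with 1 library left out PDE4B (-0.01 to 0.19), CREB1 (-0.05 to 0.06), CYP3A4 (-0.01 to 0.23) and ADCY6 (-0.02 to 0.17).

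With the replicate block 1967 genes were called, 188 passed in both and 763 had an interaction, and 3 of the named genes lost their call. The numbers did not pair the libraries, since correlations of same-numbered libraries were -0.00237, 0.0549, -0.0365 and 0.0199, and libraries numbered 1, 3 and 4 correlated better with those of another number. Depth set a limit for ADRB1, ADRB3 and other genes at a few counts, and the 4 libraries a group one for genes such as GNAS and ARRB2 near the threshold.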

Other observations

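Several further gene groups were described in the same libraries. Of 22 drug and ion transporters 9 were called up and 0 down (3 up without control replicate 3); SLCO1B1, which brings bile acids and statins into hepatocytes, was at 13.7, 15.9, 7.71 and 14.8 CPM in control and 26.7, 26.8, 26.4 and 26.1 CPM with formoterol (1.03 ± 0.27, adjusted p = 0.0192 in edgeR's quasi-likelihood test, 0.0799 without control replicate 3). Control replicate 3 was the lowest library and the groups did not overlap. Of 17 alcohol and aldehyde dehydrogenases 6 were up and 2 down. Of 20 genes of the integrated stress response 4 were up and 0 down, among them the pseudokinase TRIB3 (0.63, adjusted p = 0.00678).

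Targets of Wnt signalling moved in both directions, 2 of 15 up and 2 down. AXIN2, the feedback inhibitor of the pathway, was at 12.0, 15.3, 15.5 and 15.4 CPM in control and 11.7, 6.42, 7.41 and 8.67 CPM with formoterol (-0.76 ± 0.16, adjusted p = 0.00456), and GLUL also fell, while TBX3 (0.47, adjusted p = 0.000398) and CYP2E1 (0.95, adjusted p = 0.0175, or 0.0671 without control replicate 3) rose. Of 15 MAPK feedback genes 4 fell and 1 rose, among them SPRED1, an inhibitor of Ras signalling, from 21.0 ± 3.43 to 14.5 ± 0.568 CPM (-0.54 ± 0.10, adjusted p = 0.00219). Interferon-stimulated genes (1 of 23 called), clock genes (3 of 20) and heat shock genes (3 of 17) were nearer to the background of 10.3%.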
